A study of Saccharomyces cerevisiae with 18 samples.

Results

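The 8 genes *SAM1*, *SAM2*, *SAH1*, *CYS4*, *CYS3*, *STR2*, *GSH1* and *GSH2*, which encode enzymes of the S-adenosylmethionine (SAM) cycle, of transsulfuration and of glutathione synthesis in *Saccharomyces cerevisiae*, were chosen by name and systematic identifier. They are 8 of 7127 genes in the count table, and 8 of 8 were among the 5757 genes that passed a filter on low counts. RNA was sequenced from *snf5Δ*, *snf2Δ* and wt cells, each in YPD to which 3 mM cysteine had been added for 30 min (YPD+Cys) and in YPD alone, with 3 replicates per group and 18 libraries in all. *SNF2* encodes the ATPase of the Swi-Snf chromatin remodeler and *SNF5* another of its subunits. All 6 groups share the BY4741 background, *MATa his3Δ1 leu2Δ0 met17Δ0 ura3Δ0*, so that every strain lacks *MET17*, whose enzyme fixes sulfide into homocysteine. The *snf5Δ* and *snf2Δ* strains carry KanMX4 in place of the gene, and each is 1 strain of the deletion collection. The study asked how Swi-Snf and cysteine act on the expression of sulfur metabolism genes.

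The SAM cycle makes SAM, the main methyl donor of the cell, from methionine. *SAM1* and *SAM2* encode the SAM synthetases, and *SAH1* encodes the hydrolase that splits S-adenosylhomocysteine, the product left after methylation, into homocysteine and adenosine. Transsulfuration then joins homocysteine and serine to cystathionine (cystathionine β-synthase, *CYS4*) and splits cystathionine into cysteine (cystathionine γ-lyase, *CYS3*). The reverse route starts with the cystathionine γ-synthase encoded by *STR2*, which uses cysteine. Cysteine also feeds glutathione, the main small thiol of the cell, through γ-glutamylcysteine synthetase (*GSH1*), the rate-limiting enzyme, and glutathione synthetase (*GSH2*). Many sulfur genes are activated by Met4, which is brought to DNA by Cbf1 at CACGTG and by Met31 or Met32 at sites with the core CTGTGG.

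The genes lie on 8 different stretches of the genome (sacCer3, coding sequence, 1 exon each). *SAM1* (YLR180W) spans chrXII:515262-516410 on the + strand, *SAM2* (YDR502C) chrIV:1453310-1454464 on the - strand, and *SAH1* (YER043C) chrV:235770-237119 on the - strand. *CYS4* (YGR155W) spans chrVII:798543-800066 and *CYS3* (YAL012W) chrI:130799-131983, both on the + strand, and *STR2* (YJR130C) chrX:665218-667137 on the - strand. *GSH1* (YJL101C) spans chrX:234320-236356 on the - strand and *GSH2* (YOL049W) chrXV:238619-240094 on the + strand. No other annotated gene overlaps any of them. *SAM1* and *SAM2* are close paralogs, with 82.8% identical bases over the aligned coding sequences and 352 of 384 aligned residues identical, but 0 windows of 75 bases, the read length, occur in both or elsewhere in the genome.

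The 500 bases upstream of each start codon, read from the RefSeq genome of the same build, were searched on both strands for CACGTG of Cbf1, for the Met31 and Met32 core CTGTGG, for TGACTCA of Gcn4, and for TTACTAA and its variant TTAGTCA of Yap1. The sites of the first 2 motifs are printed because the genes that hold them include every gene that cysteine lowered in a mutant. They also include *SAH1* and *STR2*, which it did not lower, and leave out only *GSH2*. The motifs therefore do not set the lowered genes apart. Each line gives the strand of the gene 5′ to 3′, with 15 bases on either side of the motif in capitals. Where the capitals read CCACAG, the core lies on the opposite strand.

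SAM1 chrXII:514973-515008 (+): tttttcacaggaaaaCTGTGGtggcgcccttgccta
SAM2 chrIV:1454767-1454802 (-): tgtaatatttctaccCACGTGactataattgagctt
SAM2 chrIV:1454741-1454776 (-): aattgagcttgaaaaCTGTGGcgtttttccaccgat
SAH1 chrV:237340-237375 (-): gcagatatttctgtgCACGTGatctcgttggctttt
CYS3 chrI:130568-130603 (+): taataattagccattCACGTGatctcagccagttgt
CYS4 chrVII:798123-798158 (+): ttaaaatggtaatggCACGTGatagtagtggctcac
CYS4 chrVII:798321-798356 (+): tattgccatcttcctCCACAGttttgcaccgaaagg
STR2 chrX:667494-667529 (-): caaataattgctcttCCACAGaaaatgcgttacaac
GSH1 chrX:236703-236738 (-): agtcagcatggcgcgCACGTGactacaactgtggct
GSH1 chrX:236690-236725 (-): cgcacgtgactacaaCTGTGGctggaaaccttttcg
GSH1 chrX:236443-236478 (-): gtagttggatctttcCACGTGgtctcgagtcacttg

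CACGTG was in the windows of 5 of 8 genes (*SAM2*, *SAH1*, *CYS3*, *CYS4* and *GSH1*), against 6.23% of 5987 windows of the genome, and CTGTGG in those of 5 of 8 (*SAM1*, *SAM2*, *CYS4*, *STR2* and *GSH1*), against 13.2%. The nearest base of the *SAM1* site lay 269 bases before the start codon, and the other sites lay between 102 bases (*GSH1*) and 400 bases (*CYS4*) before it. TGACTCA was in 0 of 8 windows (4.01% of all), TTACTAA in those of *SAH1* and *CYS3* (11.8% of all) and TTAGTCA in those of *STR2* and *GSH1* (5.98% of all). No match overlapped a match of another motif, and the window of *GSH2* held none of the 5. A match describes the letters of the window and was not tested for binding.

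Between 1329986 and 4845830 reads per library fell in genes, and the 8 genes had between 40 (*SAM2*) and 3271 (*SAH1*) counts in a library. Levels are given as CPM (counts relative to the summed counts of a library), scaled by TMM, which sets the bulk of genes equal between libraries. In 3 libraries, *snf5Δ* YPD replicate 3 and *snf2Δ* YPD replicates 2 and 3, more than 40% of reads aligned at several places and were not counted, against at most 28.6% in the other 15. *SNF5* had at most 0.274 CPM in *snf5Δ* and at least 45.5 CPM elsewhere, *SNF2* had at most 5.22 CPM in *snf2Δ* and at least 157 CPM elsewhere, and 0 reads were counted for *LEU2*, *URA3* or *MET17* in any of the 18 libraries. *STE2*, expressed in a cells, had 136 to 725 CPM and *STE3*, of α cells, 1.09 to 12.3 CPM. Changes are log2 differences with their standard error (SE) from a fit of all genes with edgeR, and a gene was called higher or lower at an adjusted p under 0.05. The labels do not say that replicates were separate cultures, so the p-values measure the spread between these libraries. CPM are relative to all RNA counted in a library and cannot tell fewer transcripts per cell from more of all other RNA. When libraries were scaled by their plain totals, all genes had a median 0.34 higher in *snf5Δ* and 0.26 higher in *snf2Δ* than in wt in YPD, and 0.23 and 0.18 higher in YPD+Cys, and the share of higher genes among those called moved to 84.1% and 77.3% in YPD and 78.8% and 68.0% in YPD+Cys, against 44.3%, 39.96%, 46.2% and 39.98% with TMM.

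In the mutants the transcripts of *SAM1*, *SAH1*, *CYS4* and *GSH1* were lower than in wt after cysteine, by up to 9.36-fold for *SAM1*, while *STR2* was higher. In *snf5Δ* against wt in YPD+Cys, 1 of 8 genes was called higher (*STR2*) and 6 lower (*SAM1*, *SAM2*, *SAH1*, *CYS4*, *CYS3* and *GSH1*), where 9.73% of all genes were called higher and 11.3% lower. The *snf2Δ* cells in YPD+Cys had 1 gene higher than in wt (*STR2*) and 4 lower (*SAM1*, *SAH1*, *CYS4* and *GSH1*), beside 7.73% and 11.6% of all genes. In YPD, *snf5Δ* had 1 of 8 higher (*STR2*) and 4 lower (*SAM1*, *SAH1*, *GSH1* and *GSH2*), beside 12% and 15% of all genes, and *snf2Δ* had 1 higher (*STR2*) and 2 lower (*SAH1* and *CYS4*), beside 7.89% and 11.8%. The median log2 difference over the 8 genes was -1.02 in *snf5Δ* and -0.81 in *snf2Δ* in YPD+Cys, and -0.37 and -0.23 in YPD, where the median of all genes lay between -0.02 and 0.02 with TMM. With library totals the median of the 8 in YPD was -0.03 in *snf5Δ* and 0.01 in *snf2Δ*, each below that of all genes. On the scale of log2(TPM + 1), where the median of all genes was 0.73 higher in *snf5Δ* than in wt in YPD+Cys and 0.44 higher in YPD, the called genes *SAH1* (0.04) and *CYS3* (0.18) in YPD+Cys and *GSH2* (0.23) in YPD changed sign in *snf5Δ* and lay below that median. Of those not called in *snf5Δ*, *GSH2* in YPD+Cys (0.55) and *CYS4* (0.04) and *SAM2* (0.44) in YPD also changed sign, the last of them at the median itself. The 4 comparisons share their wt libraries within a medium.

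**Figure D1:**
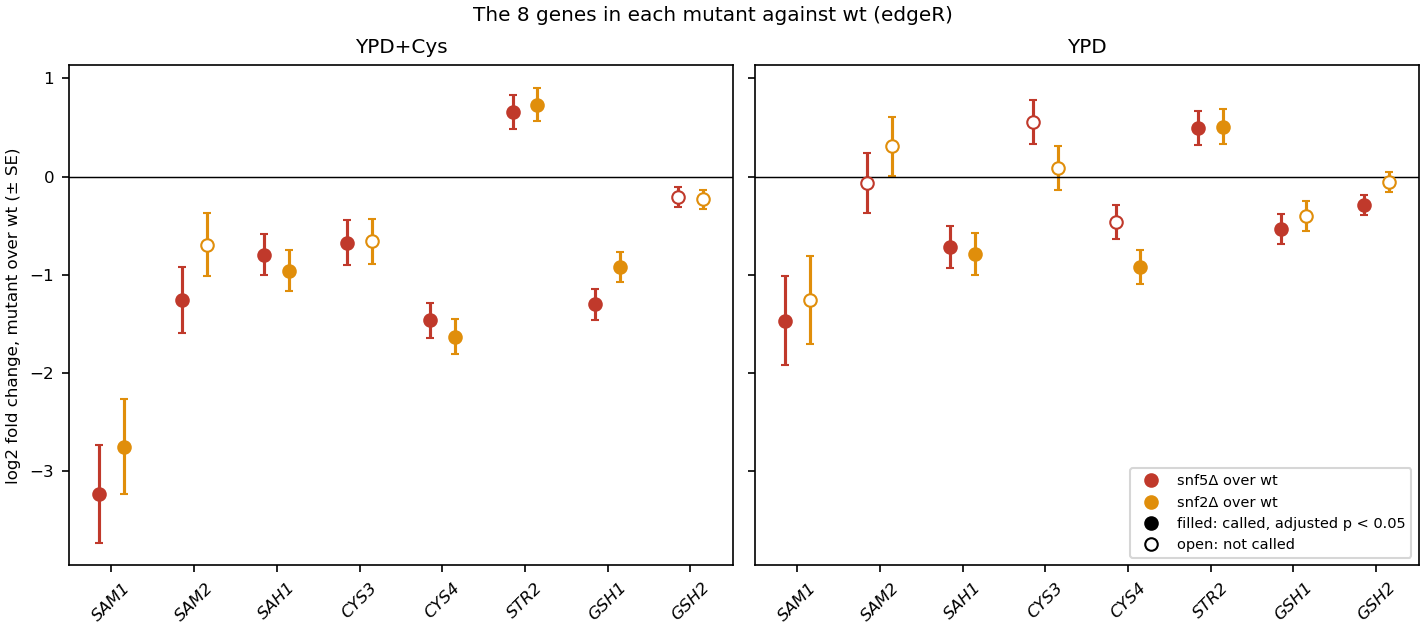
Log2 differences of the 8 genes in *snf5Δ* and *snf2Δ* over wt, in YPD+Cys and in YPD, with bars of ± 1 SE from the edgeR fit. Filled points passed an adjusted p under 0.05 and open points did not. *SAM1* lay lowest in YPD+Cys, at -3.23 in *snf5Δ* and -2.75 in *snf2Δ*, and *STR2* lay above 0 in the 4 comparisons. Of the filled points, *GSH2* in *snf5Δ* in YPD lay at 0.06 with library totals and 0.23 on the TPM scale, where *SAH1* and *CYS3* in *snf5Δ* in YPD+Cys lay at 0.04 and 0.18.

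*SAM1* was the most responsive of the 8. In YPD+Cys, *SAM1* had 17.4, 33.3 and 26.9 CPM in *snf5Δ*, 28.5, 58.5 and 22.8 CPM in *snf2Δ*, and 94.6, 169.5 and 469 CPM in wt. The YPD libraries had 173, 204 and 218 CPM in *snf5Δ*, 173, 300.4 and 214 CPM in *snf2Δ*, and 498, 423 and 721 CPM in wt. No mutant library reached the lowest wt library of its medium, and wt YPD+Cys replicate 3 was the highest of the 3 wt libraries with cysteine by far. *SAM1* was 9.36-fold lower in *snf5Δ* than in wt in YPD+Cys (log2 -3.23, SE 0.50, adjusted p = 1.94e-04) and 6.73-fold lower in *snf2Δ* (log2 -2.75, SE 0.48, adjusted p = 7.94e-04). In YPD the difference was -1.47 in *snf5Δ* (SE 0.45, adjusted p = 0.0229) and -1.26 in *snf2Δ* (SE 0.45, adjusted p = 0.0587), and only that of *snf5Δ* was called. Without wt YPD+Cys replicate 3 the values in YPD+Cys were -2.34 in *snf5Δ* (adjusted p = 5.95e-04) and -1.86 in *snf2Δ* (adjusted p = 0.00386). The call in *snf5Δ* in YPD was lost without wt YPD replicate 3 or without any 1 of the 3 *snf5Δ* libraries (adjusted p = 0.0529 to 0.0927).

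*SAM2*, the paralog, differed from wt less. In YPD+Cys, *SAM2* had 14.6, 24.96 and 10.97 CPM in *snf5Δ*, 26.9, 32.3 and 17.2 CPM in *snf2Δ*, and 20.7, 43.1 and 58.9 CPM in wt. In YPD it had 63.6, 70.0 and 79.2 CPM in *snf5Δ*, 78.0, 92.1 and 105 CPM in *snf2Δ*, and 70.4, 67.5 and 84.3 CPM in wt. The mutant and wt libraries overlapped in both media, and within each strain every YPD+Cys library lay below every YPD library. The difference in YPD+Cys was -1.26 in *snf5Δ* (SE 0.33, adjusted p = 0.0126), called lower, and -0.69 in *snf2Δ* (adjusted p = 0.147), and in YPD it was -0.07 (adjusted p = 0.902) and 0.31 (adjusted p = 0.53). Without wt YPD+Cys replicate 3, or *snf5Δ* YPD+Cys replicate 1 or 3, the call was lost (adjusted p = 0.0505 to 0.0954).

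The 2 synthetase genes thus took different shares of their summed level, computed from TPM, which is scaled by gene length. *SAM1* made up 45.9%, 53.7% and 61.9% of the sum in *snf5Δ* in YPD+Cys, 47.3%, 60.7% and 50.2% in *snf2Δ*, and 80.2%, 77.6% and 87.2% in wt. In YPD its share was 68.7%, 71.0% and 69.0% in *snf5Δ*, 66.4%, 72.6% and 63.1% in *snf2Δ*, and 86.0%, 84.2% and 88.4% in wt. Each mutant library lay below each wt library of either medium, and each mutant library with cysteine lay below each library of its strain in YPD. The means were 53.8% ± 7.98 (SD, n = 3) in *snf5Δ*, 52.7% ± 7.09 (SD, n = 3) in *snf2Δ* and 81.7% ± 4.98 (SD, n = 3) in wt in YPD+Cys, and 69.6% ± 1.26, 67.4% ± 4.84 and 86.2% ± 2.13 (SD, n = 3 each) in YPD. An exact two-sided permutation test of 3 against 3 libraries cannot go below p = 0.1, so none is given.

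**Figure D2:**
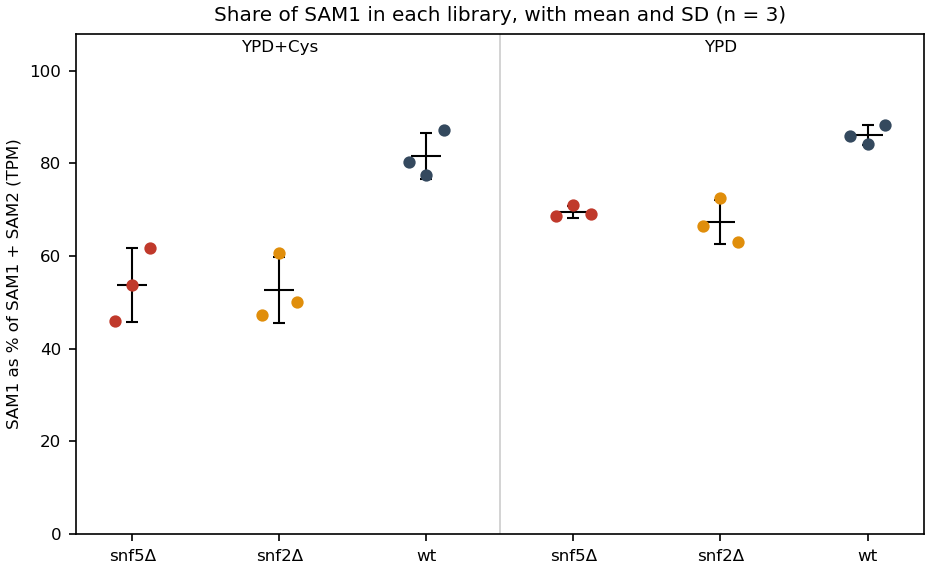
Share of *SAM1* in the summed TPM of *SAM1* and *SAM2*, in percent, for each of the 18 libraries (points) with the group mean and SD, the mutants left of wt. The wt libraries lie at 77.6% or more, and the 12 mutant libraries at 72.6% or less.

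*SAH1*, the hydrolase gene, was lower in both mutants to a like degree in either medium. In YPD+Cys, *SAH1* had 323, 399 and 389 CPM in *snf5Δ*, 278, 341 and 373 CPM in *snf2Δ*, and 557, 489.8 and 879.6 CPM in wt. The YPD libraries had 337, 399 and 413 CPM in *snf5Δ*, 285, 385 and 421 CPM in *snf2Δ*, and 607, 513 and 765 CPM in wt. Mutant and wt libraries did not overlap in either medium, while the 2 media overlapped within each strain. The difference in YPD+Cys was -0.79 in *snf5Δ* (SE 0.21, adjusted p = 0.0134) and -0.96 in *snf2Δ* (SE 0.21, adjusted p = 0.00459). Without wt YPD+Cys replicate 3 it was -0.50 in *snf5Δ* (adjusted p = 0.102), and the call was also lost without *snf5Δ* YPD+Cys replicate 1 (adjusted p = 0.0601). In YPD the calls were lost without wt YPD replicate 3 or replicate 1 of the mutant (adjusted p = 0.081 to 0.103 in *snf5Δ* and 0.0819 to 0.0835 in *snf2Δ*).

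**Figure D3:**
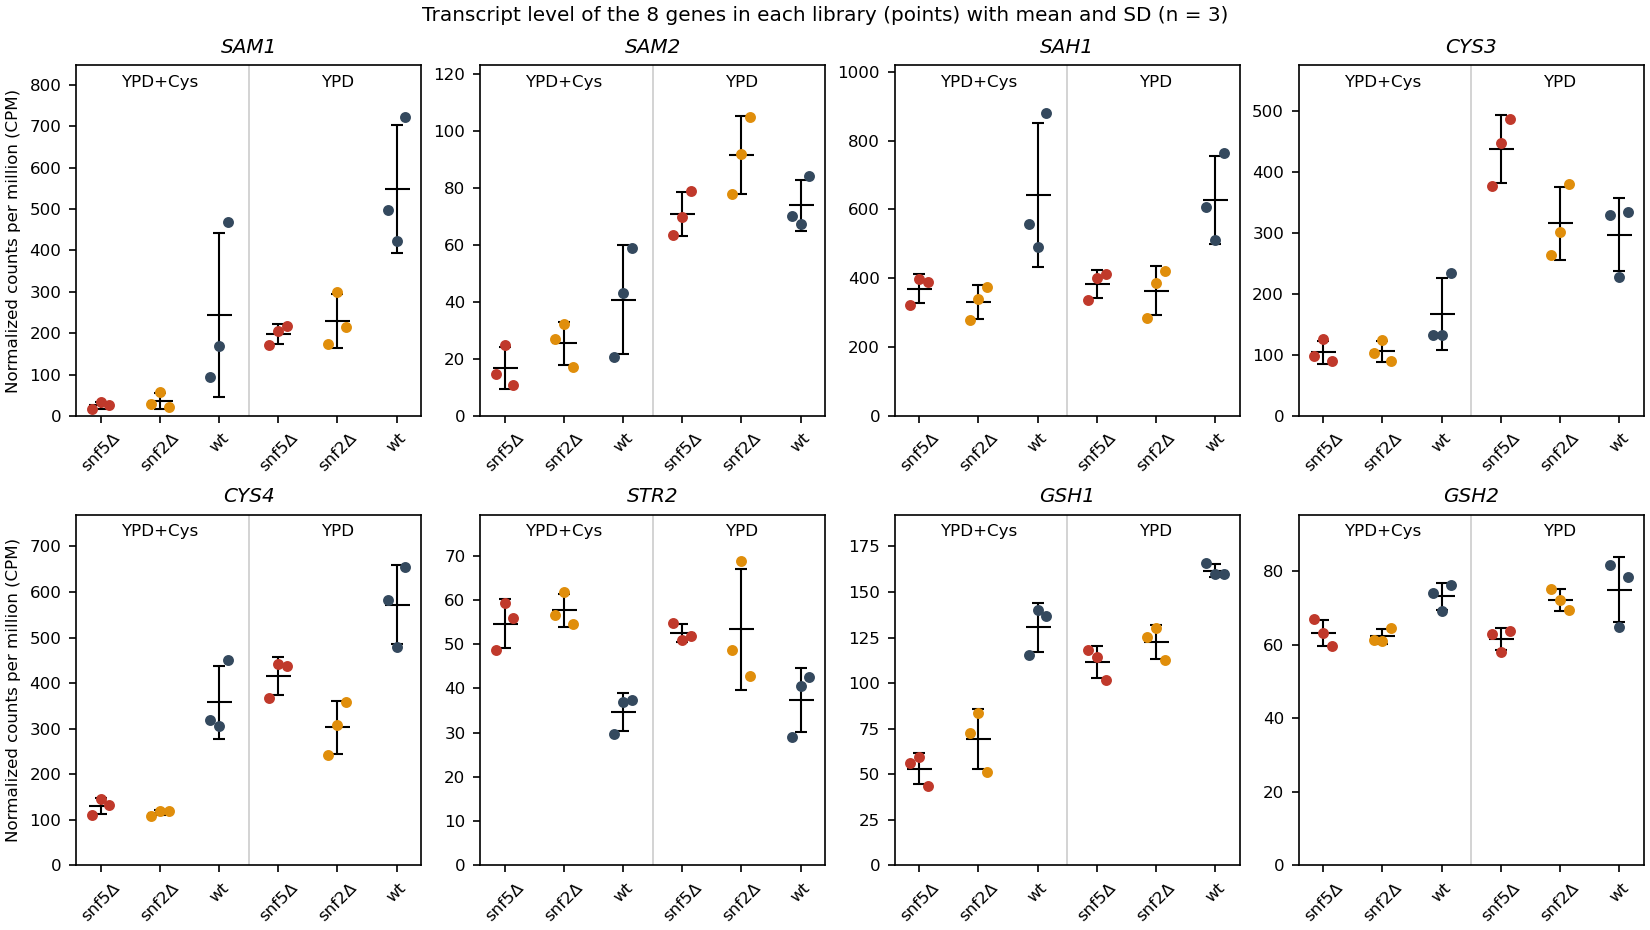
CPM of the 8 genes in each of the 18 libraries on a linear axis from 0, 1 panel per gene, with YPD+Cys left of YPD and *snf5Δ* and *snf2Δ* left of wt. Points are libraries and bars the group mean ± SD (n = 3). *SAM1*, *SAM2*, *CYS4*, *CYS3* and *GSH1* lie lower with cysteine in the mutants and have lower means with it in wt too. *SAH1*, *STR2* and *GSH2* stay at a like level in both media.

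*CYS4*, the gene of cystathionine β-synthase, was lower in both mutants after cysteine, beyond the spread of the libraries. In YPD+Cys, *CYS4* had 111, 145 and 133 CPM in *snf5Δ*, 109, 118 and 119.8 CPM in *snf2Δ*, and 319, 305 and 451 CPM in wt. In YPD it had 367, 442 and 437 CPM in *snf5Δ*, 243, 307 and 359 CPM in *snf2Δ*, and 583, 479.9 and 654 CPM in wt. The groups of mutants and wt did not overlap in either medium. The difference was -1.46 in *snf5Δ* (SE 0.18, adjusted p = 1.66e-05) and -1.63 in *snf2Δ* (SE 0.18, adjusted p = 6.57e-06) in YPD+Cys, and these calls were kept without any 1 library. In YPD it was -0.46 in *snf5Δ* (SE 0.17, adjusted p = 0.0558), not called, and -0.92 in *snf2Δ* (SE 0.17, adjusted p = 0.00145), called in 6 of 6 fits without 1 library.

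*CYS3*, the gene of the next step, was called in neither mutant in YPD and lower in *snf5Δ* in YPD+Cys. In YPD+Cys, *CYS3* had 98.6, 126 and 89.4 CPM in *snf5Δ*, 103, 124 and 90.4 CPM in *snf2Δ*, and 133, 133 and 235 CPM in wt. The YPD libraries had 377, 448 and 487 CPM in *snf5Δ*, 264, 302 and 381 CPM in *snf2Δ*, and 330.0, 228 and 333 CPM in wt. Each *snf5Δ* library in YPD lay above each wt library, and each mutant library in YPD+Cys lay below each wt library. With TMM the difference in YPD was 0.56 in *snf5Δ* (SE 0.22, adjusted p = 0.0773), which was not called, and 0.09 in *snf2Δ* (adjusted p = 0.83). With library totals *CYS3* in *snf5Δ* in YPD was 0.91 higher (adjusted p = 0.00755). In YPD+Cys the difference was -0.67 in *snf5Δ* (SE 0.23, adjusted p = 0.0454), called lower, and -0.66 in *snf2Δ* (SE 0.23, adjusted p = 0.052), not called. The call rested on single libraries and was lost without wt YPD+Cys replicate 3 (-0.34, adjusted p = 0.31) or *snf5Δ* YPD+Cys replicate 1 or 3 (adjusted p = 0.122 at the lowest).

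*STR2*, the gene of the reverse route, was the only one of the 8 that was called higher in a mutant with TMM. In YPD+Cys, *STR2* had 48.6, 59.3 and 55.9 CPM in *snf5Δ*, 56.5, 61.8 and 54.6 CPM in *snf2Δ*, and 29.7, 37.0 and 37.4 CPM in wt. In YPD it had 54.7, 50.9 and 51.7 CPM in *snf5Δ*, 48.7, 68.8 and 42.7 CPM in *snf2Δ*, and 29.0, 40.4 and 42.5 CPM in wt. With cysteine every mutant library lay above every wt library. The difference was 0.66 in *snf5Δ* (SE 0.17, adjusted p = 0.0112) and 0.73 in *snf2Δ* (SE 0.17, adjusted p = 0.00609) in YPD+Cys, kept without any 1 library, and 0.49 and 0.51 in YPD, where 4 of 6 fits without 1 library lost the call in each mutant (adjusted p = 0.0606 to 0.125 in *snf5Δ* and 0.0503 to 0.238 in *snf2Δ*). Those were the fits that left out a *snf5Δ* library or wt replicate 1 in *snf5Δ*, and *snf2Δ* replicate 1 or *snf2Δ* replicate 2 or wt replicate 1 or wt replicate 3 in *snf2Δ*. *STR2* was thus called higher and *CYS4* lower than in wt in both mutants in YPD+Cys.

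*GSH1*, the gene of the rate-limiting step of glutathione synthesis, had replicates close to each other in wt in YPD. In YPD+Cys, *GSH1* had 56.2, 59.5 and 43.3 CPM in *snf5Δ*, 72.6, 83.8 and 51.4 CPM in *snf2Δ*, and 115, 140.2 and 137 CPM in wt. In YPD it had 118, 115 and 102 CPM in *snf5Δ*, 125, 130.0 and 112 CPM in *snf2Δ*, and 166, 159.7 and 159.7 CPM in wt. No mutant library reached a wt library of its medium. The difference in YPD+Cys was -1.30 in *snf5Δ* (SE 0.16, adjusted p = 1.74e-05) and -0.92 in *snf2Δ* (SE 0.15, adjusted p = 5.37e-04), kept without any 1 library. In YPD it was -0.53 in *snf5Δ* (SE 0.15, adjusted p = 0.0168) and -0.40 in *snf2Δ* (SE 0.15, adjusted p = 0.0791), and the call in *snf5Δ* was lost without wt YPD replicate 1 or 2 or *snf5Δ* YPD replicate 3 (adjusted p = 0.0529 to 0.0894).

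*GSH2*, the gene of the last step, varied least. In YPD+Cys, *GSH2* had 66.9, 63.2 and 59.8 CPM in *snf5Δ*, 61.3, 61.0 and 64.6 CPM in *snf2Δ*, and 74.1, 69.2 and 76.4 CPM in wt. In YPD it had 62.8, 58.1 and 63.9 CPM in *snf5Δ*, 75.2, 72.1 and 69.4 CPM in *snf2Δ*, and 81.8, 64.9 and 78.4 CPM in wt. The lowest wt library of each medium lay above the 3 *snf5Δ* libraries, by less than 3 CPM. In *snf5Δ* in YPD the difference of -0.29 was called lower (adjusted p = 0.0487), and 5 of 6 fits without 1 library lost the call, those that left out wt replicate 1 or 3 or a *snf5Δ* library (adjusted p = 0.0898 to 0.267). In YPD+Cys it was -0.21 in *snf5Δ* (adjusted p = 0.15) and -0.23 in *snf2Δ* (adjusted p = 0.117), neither called.

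Between the mutants themselves 0 of 8 genes were called, in YPD+Cys or in YPD. All genes were called higher in *snf5Δ* than in *snf2Δ* at 1.37% and lower at 1.16% in YPD+Cys, and at 1.68% and 1.3% in YPD. At an unadjusted p under 0.05 there was 1 of 8 in YPD+Cys (*GSH1*) and 2 of 8 in YPD (*CYS4* and *GSH2*). The share of all genes at that cutoff is not given here. DESeq2 called 0 of 8 in either medium, beside 106 genes higher and 86 lower of 5757 in YPD+Cys and 143 and 99 in YPD. *CYS4* in YPD was 0.46 higher in *snf5Δ*, with a 95% interval of 0.09 to 0.82 (adjusted p = 0.206). For *SAM1* the interval of the difference ran from -1.51 to 0.56 in YPD+Cys and from -1.15 to 0.74 in YPD, so that both hold 0 as well as a level 1 log2 unit lower in *snf5Δ*.

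Cysteine lowered the same 5 genes in both mutants: *SAM1*, *SAM2*, *CYS4*, *CYS3* and *GSH1*. In YPD+Cys against YPD, 5 of 8 were called lower in *snf5Δ* and 0 higher, beside 0.834% lower and 0.0695% higher of all genes. In *snf2Δ* 5 were lower and 0 higher, beside 0.591% and 0.0521%. In wt 0 of 8 were called in either direction without a pairing of replicate numbers, beside 0.226% lower and 0.208% higher of all genes. With the numbers of each strain fitted as a block, given below, the 5 genes were called lower in wt, beside 3.13% of all genes. Without the block, 4 (*SAM1*, *SAM2*, *CYS4* and *CYS3*) had an unadjusted p under 0.05, where the share of all genes is not given here. DESeq2 called 1 of 8 (*CYS4*, adjusted p = 0.0333), beside 23 genes higher and 19 lower of 5757. The median log2 difference over the 8 genes was -1.38 in *snf5Δ*, -1.11 in *snf2Δ* and -0.49 in wt, where the median of all genes lay within 0.01 of 0.

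*SAM1* fell 7.58-fold with cysteine in *snf5Δ* (log2 -2.92, SE 0.50, adjusted p = 0.00314) and 6.29-fold in *snf2Δ* (log2 -2.65, SE 0.48, adjusted p = 0.00932). *SAM2* fell as well, with a log2 difference of -2.04 in *snf5Δ* (SE 0.33, adjusted p = 0.00207) and -1.85 in *snf2Δ* (SE 0.32, adjusted p = 0.00615). The 2 paralogs were thus both lowered, *SAM1* further in log2 units in both mutants, a difference that was not tested. *CYS3* was at -2.06 in *snf5Δ* (SE 0.23, adjusted p = 3.77e-05) and -1.57 in *snf2Δ* (SE 0.23, adjusted p = 0.00114). *CYS4* was at -1.68 in *snf5Δ* (SE 0.18, adjusted p = 1.84e-05) and -1.39 in *snf2Δ* (SE 0.18, adjusted p = 2.85e-04). The response of *GSH1* was smaller, -1.07 in *snf5Δ* (SE 0.16, adjusted p = 6.96e-04) and -0.83 in *snf2Δ* (SE 0.16, adjusted p = 0.0122). In *snf5Δ* these calls were kept without any 1 library, and in *snf2Δ* those of *CYS3* and *CYS4*. In *snf2Δ* the call of *SAM1* was lost without YPD replicate 2 or YPD+Cys replicate 1 or 3 (adjusted p = 0.0513 to 0.0815), that of *SAM2* without YPD+Cys replicate 3 (adjusted p = 0.0526), and that of *GSH1* without YPD replicate 1 or 2 or YPD+Cys replicate 3 (adjusted p = 0.0608 to 0.0747). Without the 3 libraries with over 40% of reads in several places, which left 1 *snf2Δ* library in YPD, 0 of 8 were called in *snf2Δ*, with *CYS4* at -1.07 (adjusted p = 0.0836) and *SAM1* at -2.25 (adjusted p = 0.509).

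*SAH1*, *STR2* and *GSH2* were not called with cysteine in any strain. For *SAH1* the difference was -0.05 in *snf5Δ* (95% interval -0.50 to 0.40), -0.13 in *snf2Δ* (-0.58 to 0.31) and 0.03 in wt (-0.41 to 0.48). *STR2* differed by 0.06 in *snf5Δ*, 0.12 in *snf2Δ* and -0.10 in wt, and *GSH2* by 0.04, -0.21 and -0.03. *SAH1* holds CACGTG and *STR2* holds CTGTGG in the windows printed above, as the 5 lowered genes do for at least 1 of these motifs.

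In wt the 5 genes also had lower mean levels with cysteine, with log2 differences of -1.16 for *SAM1* (adjusted p = 0.665), -0.85 for *SAM2* (adjusted p = 0.599), -0.83 for *CYS3* (adjusted p = 0.225), -0.68 for *CYS4* (adjusted p = 0.159) and -0.31 for *GSH1* (adjusted p = 0.844). Here wt YPD+Cys replicate 3 stood apart. Without it *SAM1* was at -2.05 (adjusted p = 0.0263), *CYS3* at -1.16 (adjusted p = 0.0191) and *CYS4* at -0.88 (adjusted p = 0.0332), each under the threshold. Same-numbered libraries of the 2 media in a strain deviated together from their group means, so that the numbers pair them. Within replicate numbers 1, 2 and 3, *SAM1* differed by -3.31, -2.62 and -3.02 in *snf5Δ*, by -2.60, -2.36 and -3.23 in *snf2Δ*, and by -2.40, -1.32 and -0.62 in wt. *CYS4* differed by -1.73, -1.61 and -1.72 in *snf5Δ*, by -1.16, -1.38 and -1.58 in *snf2Δ*, and by -0.87, -0.66 and -0.54 in wt. In both genes the 3 wt pairs were spread over a range in which number 3 lay nearest to 0, and for *SAM1* pair 1 of wt lay among the mutant pairs. *SAM2* differed by -2.12, -1.49 and -2.85 in *snf5Δ*, by -1.53, -1.51 and -2.61 in *snf2Δ*, and by -1.76, -0.65 and -0.52 in wt. *CYS3* differed by -1.93, -1.83 and -2.44 in *snf5Δ*, by -1.36, -1.28 and -2.07 in *snf2Δ*, and by -1.31, -0.78 and -0.51 in wt. *GSH1* differed by -1.07, -0.94 and -1.23 in *snf5Δ*, by -0.79, -0.63 and -1.13 in *snf2Δ*, and by -0.52, -0.19 and -0.23 in wt. The sign was the same in 9 of 9 pairs for each of the 5 genes. The 5 were named for their calls in the mutants, which largely sets the sign of the mutant pairs. Only the 3 wt pairs are free of that choice.

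**Figure D4:**
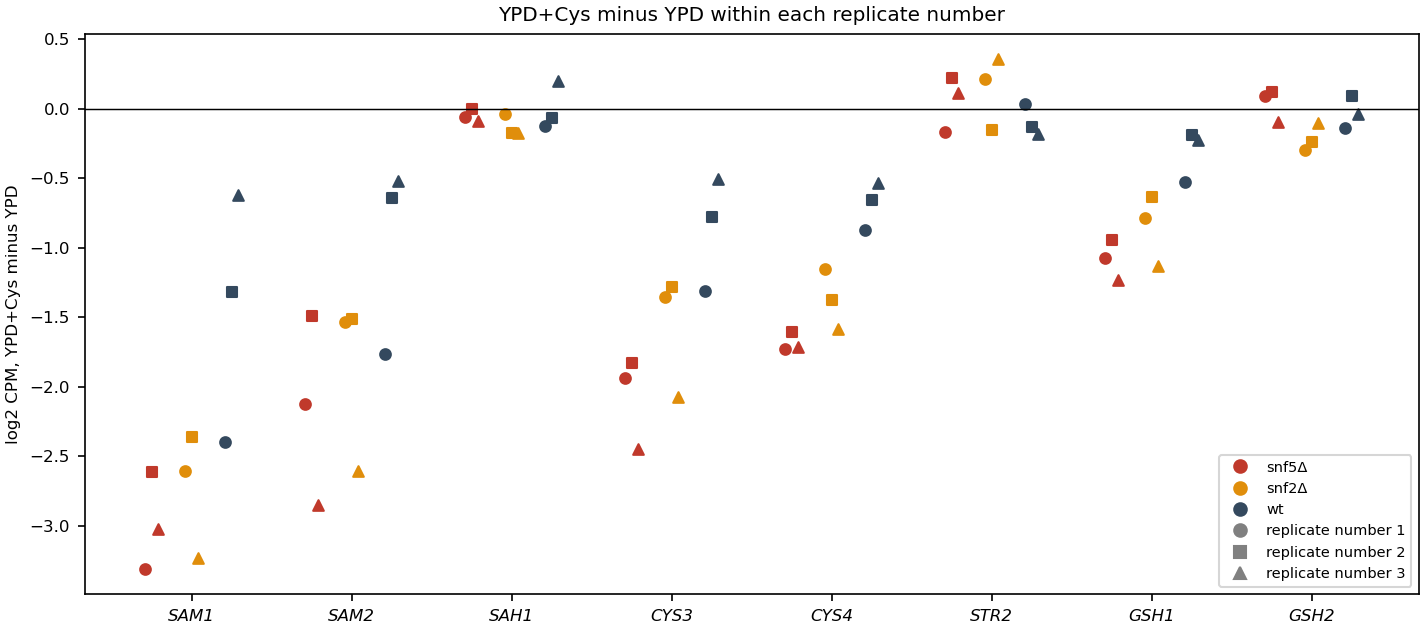
Log2 difference of YPD+Cys minus YPD within each replicate number for the 8 genes, with *snf5Δ* left of *snf2Δ* and wt. Each point is 1 pair of libraries. For *SAM1*, *SAM2*, *CYS4*, *CYS3* and *GSH1*, named for their calls in the mutants, the 9 points lie below 0. For *CYS4* the wt points, at -0.87 to -0.54, lie above those of *snf5Δ* and *snf2Δ*.

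When the replicate numbers of each strain were fitted as a block, the 5 genes were called lower in wt as well: *SAM1* at -1.38 (SE 0.19, adjusted p = 9.82e-05), *SAM2* at -0.89 (SE 0.21, adjusted p = 0.0119), *CYS3* at -0.86 (SE 0.14, adjusted p = 5.09e-04), *CYS4* at -0.69 (SE 0.08, adjusted p = 1.01e-05) and *GSH1* at -0.31 (SE 0.09, adjusted p = 0.0344). In that fit 3.13% of all genes were lower in wt, 3.02% in *snf2Δ* and 2.03% in *snf5Δ*. The call of *SAM2* was lost without wt number 1 and that of *GSH1* without any 1 of the 3 numbers. In both mutants the 5 calls stood with the block, and were kept without any 1 number.

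The cysteine response was larger in the mutants in the means of the 5 genes. These were named for their calls in the same mutant libraries, a choice that favours a larger mean there. Without the block 0 of 8 were called for the difference of the responses, higher or lower, beside 0% higher and 0.33% lower of all genes for *snf5Δ* minus wt and 0% and 0.0869% for *snf2Δ* minus wt. The 5 genes had an unadjusted p under 0.05 in each, where the share of all genes is not given here. DESeq2 called 1 of 8 for *snf5Δ* (*CYS4*, adjusted p = 0.0247), beside 1 gene higher and 28 lower of 5757. It called 0 of 8 for *snf2Δ*, beside 1 higher and 13 lower. The median over the 8 genes was -0.88 for *snf5Δ* and -0.62 for *snf2Δ*. With the block within strain, 4 were called for *snf5Δ*, where 1.04% of all genes were lower: *CYS4* at -0.99 (SE 0.12, adjusted p = 2.82e-05), *CYS3* at -1.19 (SE 0.20, adjusted p = 0.00131), *GSH1* at -0.75 (SE 0.13, adjusted p = 0.00209) and *SAM1* at -1.54 (SE 0.32, adjusted p = 0.0121). The first 3 were kept in 6 of 6 fits without 1 replicate number, and *SAM1* was lost without *snf5Δ* number 1 or 3 or wt number 3 (adjusted p up to 0.0892). For *snf2Δ* only *CYS4* was called, at -0.69 (SE 0.12, adjusted p = 0.00474), beside 0.469% of all genes, and it was lost without *snf2Δ* number 3 (adjusted p = 0.0815). *SAM1* at -1.32 (adjusted p = 0.0615) and *GSH1* at -0.53 (adjusted p = 0.0704) were not called for *snf2Δ*. Without the block and without wt YPD+Cys replicate 3, the difference for *SAM1* was -0.87 in *snf5Δ* and -0.60 in *snf2Δ*.

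The order of the 8 transcripts by mean CPM per kb of coding sequence changed with strain and medium. With cysteine the hydrolase gene *SAH1* came first in the 3 strains, at 274 in *snf5Δ*, 245 in *snf2Δ* and 476 in wt. In *snf5Δ* in YPD+Cys it was followed by *CYS3* (88.3), *CYS4* (85.1), *GSH2* (42.9), *STR2* (28.5), *GSH1* (26.03), *SAM1* (22.5) and *SAM2* (14.6), and in *snf2Δ* by *CYS3* (89.4), *CYS4* (75.9), *GSH2* (42.2), *GSH1* (34.0), *SAM1* (31.8), *STR2* (30.0) and *SAM2* (22.1). The libraries of *CYS3* and *CYS4* overlapped in both mutants, as did those of *STR2*, *GSH1* and *SAM1*. In wt in YPD+Cys *SAH1* was followed by *CYS4* (235), *SAM1* (213), *CYS3* (141), *GSH1* (64.2), *GSH2* (49.6), *SAM2* (35.4) and *STR2* (18.1). The *SAM1* libraries of wt in YPD+Cys lay at 82.3, 148 and 408, with replicate 3 the highest, and overlapped those of *CYS4* and *CYS3*. In wt in YPD the order was *SAM1* (477), *SAH1* (465), *CYS4* (376), *CYS3* (251), *GSH1* (79.4), *SAM2* (64.1), *GSH2* (50.8) and *STR2* (19.4). *SAM1* and *SAH1* lay closer than their replicates, and the first 4 stood above the rest. In *snf2Δ* in YPD it was *SAH1* (269), *CYS3* (266), *SAM1* (199), *CYS4* (199), *SAM2* (79.4), *GSH1* (60.2), *GSH2* (48.9) and *STR2* (27.8), where the first 4 overlapped. In *snf5Δ* in YPD it began with *CYS3* (369), *SAH1* (284), *CYS4* (272) and *SAM1* (173), so that the cystathionine γ-lyase transcript took the first place.

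Levels of the 8 genes were compared over the 18 libraries, which share strain and medium, as a description of log2 CPM. Among the 8, *SAM1* was closest to *CYS4* (r = 0.949) and *GSH1* (r = 0.937), and *SAM2* to *CYS3* (r = 0.911), while *STR2* had r between -0.67 and -0.15 with the others. These r include the differences between groups. For deviations from the group means, *SAM1* had r = 0.79 with *SAM2*, 0.77 with *CYS3*, 0.69 with *CYS4* and 0.44 with *GSH1*. There *SAM2* had r = 0.77 with *CYS3*, and *STR2* had r between -0.29 and 0.54 with the others. Among all other genes, *OPT1*, a glutathione and peptide transporter gene, was closest to *SAM1* (r = 0.957) and *GSH1* (r = 0.970), and the unnamed gene *YLR179C* to *CYS4* (r = 0.961). *MUP1*, of the high-affinity methionine permease, was closest to *SAM2* (r = 0.942) and *CYS3* (r = 0.947), each followed by *MMP1*, of the S-methylmethionine permease (r = 0.919 and r = 0.926). *SAH1* had *RPL13A*, *FUR1* and *RPL5* as its nearest genes (r = 0.976, 0.976 and 0.975), 2 of them ribosomal protein genes. *STR2* was closest to the dubious reading frame *YDR010C* (r = 0.905) and *GSH2* to *MOT1* (r = 0.901), the gene of an ATPase that removes TATA-binding protein from DNA.

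*YLR179C* lies head to head with *SAM1*, with 548 bases between the 2 coding sequences, and had r = 0.933 with it. Its r was higher with *CYS4* (r = 0.961), which lies on another chromosome. In YPD+Cys, *YLR179C* had 43.6, 43.6 and 40.3 CPM in *snf5Δ*, 36.0, 44.5 and 30.9 CPM in *snf2Δ*, and 94.0, 85.4 and 134 CPM in wt. Its difference from wt was -1.30 in *snf5Δ* (adjusted p = 9.95e-05) and -1.50 in *snf2Δ* (adjusted p = 3.23e-05) with cysteine, and its difference with cysteine was -1.22 in *snf5Δ* (adjusted p = 0.00123) and -1.03 in *snf2Δ* (adjusted p = 0.0111). In YPD the difference from wt was -0.31 in *snf5Δ* (adjusted p = 0.24), not called, and -0.70 in *snf2Δ* (adjusted p = 0.0128), called lower. The difference with cysteine in wt was -0.23, not called. The CTGTGG printed above for *SAM1* lies in this shared stretch. *GTO1*, head to head with *CYS4* across 674 bases, had r = 0.78 with it. It was called lower than in wt only in *snf5Δ* in YPD+Cys (-0.89) and *snf2Δ* in YPD (-0.71). With cysteine it was called lower only in *snf5Δ* (-1.07). The 6 other neighbours had r between -0.33 and 0.66, the highest for *ERG28*, upstream of *SAH1* across 450 bases. *ERG28* was called lower than in wt at -1.20 in *snf5Δ* and -0.74 in *snf2Δ* in YPD+Cys, and -1.48 and -1.11 in YPD.

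Of 17 genes of enzymes that use SAM, 4 were lower and 1 higher in *snf5Δ* and 5 lower and 0 higher in *snf2Δ* in YPD+Cys, and 4 lower and 1 higher in *snf5Δ* and 4 lower and 0 higher in *snf2Δ* in YPD. Among all genes, 11.3% were lower and 9.73% higher in *snf5Δ* and 11.6% and 7.73% in *snf2Δ* in YPD+Cys, and 15% and 12% in *snf5Δ* and 11.8% and 7.89% in *snf2Δ* in YPD. *CHO2*, which encodes the first methyltransferase of phosphatidylcholine synthesis and whose enzyme is a large consumer of SAM, was lower in YPD+Cys, at a log2 difference of -1.99 in *snf5Δ* (adjusted p = 3.33e-08) and -1.89 in *snf2Δ* (adjusted p = 5.35e-08). *CHO2* was also the only one of the 17 that cysteine lowered by the test, at -1.49 in *snf5Δ*, -1.37 in *snf2Δ* and -1.25 in wt (adjusted p = 3.48e-06, 2.02e-05 and 1.88e-04). *ERG6*, of the sterol methyltransferase, was at -0.97 in *snf5Δ* and -0.57 in *snf2Δ* in YPD+Cys. The median of the 17 was -0.27 in *snf5Δ* and -0.26 in *snf2Δ* in YPD+Cys and -0.29 and -0.31 in YPD.

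Of 19 genes of glutathione use and breakdown, 4 were higher and 3 lower in *snf5Δ* and 2 higher and 3 lower in *snf2Δ* in YPD+Cys, and 6 higher and 2 lower in *snf5Δ* and 5 higher and 3 lower in *snf2Δ* in YPD. Beside these stand 9.73% higher and 11.3% lower of all genes in *snf5Δ* and 7.73% and 11.6% in *snf2Δ* in YPD+Cys, and 12% and 15% in *snf5Δ* and 7.89% and 11.8% in *snf2Δ* in YPD. *GPX2*, of a glutathione peroxidase, was at -3.21 in *snf5Δ* (adjusted p = 6.38e-08) and -2.63 in *snf2Δ* (adjusted p = 3.25e-07) in YPD+Cys. The glutathione transferase gene *GTT2* was at 1.09 in *snf5Δ* (adjusted p = 0.00115) and 0.88 in *snf2Δ* (adjusted p = 0.00636). With cysteine only *DUG3*, of the glutathione-degrading Dug complex, was called among the 19, at -0.86 in *snf5Δ* and -0.85 in *snf2Δ* (adjusted p = 0.0309 and 0.0386), while 0 of 19 were called in wt.

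Of 7 genes at neighbouring steps, cysteine lowered 4 in *snf5Δ*, 4 in *snf2Δ* and 1 in wt (*IRC7*), and raised none, where 0.834%, 0.591% and 0.226% of all genes were lower. *MET6*, whose enzyme turns homocysteine into methionine, was at -3.21 in *snf5Δ* (adjusted p = 4.2e-05) and -2.80 in *snf2Δ* (adjusted p = 3.01e-04). *STR3*, which completes the reverse route that *STR2* starts, was at -2.61 in *snf5Δ* (adjusted p = 6.74e-06) and -1.81 in *snf2Δ* (adjusted p = 3.08e-04). Thus the 2 genes of the reverse route differed, with *STR3* called and *STR2* not. Against wt in YPD, 4 of 7 were higher and 2 lower in *snf5Δ*, beside 12% and 15% of all genes. In *snf2Δ* 3 were higher and 2 lower, beside 7.89% and 11.8%. Both *MET6* (2.07 in *snf5Δ* and 1.91 in *snf2Δ*) and *STR3* (2.03 and 2.06) were higher than in wt in YPD. In YPD+Cys 0 were higher in either mutant, and 2 were lower in *snf5Δ* and 1 in *snf2Δ*, beside 11.3% and 11.6% lower of all genes.

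Of 7 regulators, 2 were higher than in wt in YPD in each mutant and 0 lower, beside 12% higher of all genes in *snf5Δ* and 7.89% in *snf2Δ*. They were *MET28*, a cofactor of Met4, by 2.14 in *snf5Δ* and 2.10 in *snf2Δ*, and *MET32* by 2.10 and 1.32. In YPD+Cys 0 of 7 were called in *snf5Δ*, and in *snf2Δ* *MET28* (1.00, adjusted p = 0.0317) and *MET4* (0.56, adjusted p = 0.0385) were higher, beside 9.73% and 7.73% of all genes. Cysteine lowered 2 of 7 in *snf5Δ*, 1 in *snf2Δ* and 0 in wt, beside 0.834%, 0.591% and 0.226% of all genes. *MET32* was at -2.47 in *snf5Δ* (adjusted p = 1.42e-04) and -2.68 in *snf2Δ* (adjusted p = 5.05e-04), and *MET28* at -1.61 in *snf5Δ* (adjusted p = 0.00456).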

How the data were processed

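Total RNA depleted of ribosomal RNA was sequenced in 18 libraries (6 groups of 3), from cells that the labels give as harvested at an OD600 of 0.4 to 0.8. The authors aligned reads with STAR 2.7.3a to sacCer3 with Ensembl gene models and deposited raw counts per gene. The strand setting of the counting is not given in the sources used here. The authors also deposited TPM and expected counts from RSEM 1.3.0, rounded here to whole numbers for an alternative fit. In 18 of 18 libraries the RSEM file correlated best with the counts of its own library. Of 7127 genes, 6047 matched the annotation of the same build. Reads in 4 lines that name no gene (14.4% to 78.2% of a library) were left out.

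Genes were kept by filterByExpr, libraries scaled by TMM, and 1 model with a mean for each of the 6 groups fitted in edgeR 4.0.16 (R 4.3.3, common dispersion 0.0292, 12 residual and 4.5 prior degrees of freedom). Each comparison was tested with the quasi-likelihood test, Benjamini-Hochberg adjusted over 5757 genes. On simulated counts for *snf2Δ* against wt in YPD (5650 genes) it recovered 83% of 2-fold and 99% of 4-fold changes with 11 false calls. These counts were drawn from the fitted dispersions, without paired or outlying libraries, so the shares need not hold for the 8 genes. The genes named are the 8, members of 4 lists that were called or changed most or least, and for each of the 8 the 3 genes with the highest Pearson r of log2 CPM (prior count 2). Members and lists were chosen with earlier results of these data known, and the lists are described by counts and medians.

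Deviations from the group mean of same-numbered libraries of the 2 media correlated across genes at 0.492, 0.224 and 0.513 in *snf5Δ*, at 0.571, 0.459 and 0.787 in *snf2Δ* and at 0.609, 0.608 and 0.490 in wt. Replicate numbers therefore pair the media within a strain, as a reading of the data, since the labels do not say what a number marks. For mutant against wt, numbers 1, 2 and 3 correlated at -0.136, 0.330 and 0.138 in *snf5Δ* and -0.306, 0.174 and -0.00555 in *snf2Δ* in YPD. In YPD+Cys they correlated at -0.0843, 0.205 and 0.179 in *snf5Δ* and -0.116, 0.291 and 0.184 in *snf2Δ*. As number 1 was negative throughout, the numbers were not taken to pair mutants with wt, though numbers 2 and 3 mostly correlated. Alternatives were RLE factors, library totals, no filter or at least 10 counts in every library, DESeq2 1.42.0, limma 3.58.1 on log2(TPM + 1) and log2(TPM + 0.1) for a mean TPM of at least 1, RSEM counts, the compared groups alone, replicate blocks, leaving out libraries with over 40% of reads in several places, and leaving out each library. Leaving out replicate numbers under the block, and libraries from the *SAM1* share, was added after seeing the data. Motifs were searched in 500 bases before each start codon of the genome.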

Additional observations from a re-analysis of the deposited data

Results flagged for a closer look

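In the fit with a block for the replicate numbers of each strain, the edgeR test of the difference itself found 5 values at which the cysteine response of a mutant differed from that of wt. For *snf5Δ* minus wt they were -1.54 for *SAM1*, -1.19 for *CYS3*, -0.99 for *CYS4* and -0.75 for *GSH1*. For *snf2Δ* minus wt it was -0.69 for *CYS4*. Without the block 0 of these 5 passed in edgeR, while DESeq2, also without a block, called *CYS4* for *snf5Δ* minus wt. The values of *SAM1* for *snf5Δ* and of *CYS4* for *snf2Δ* were lost when single replicate numbers were left out, and the other 3 were not. The part that wt YPD+Cys replicate 3 has in them was tested only by leaving out wt number 3, which ended the call of *SAM1*.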

How the results depend on the processing

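Over the 8 genes, 11 comparisons and these alternatives, 1486 values kept their side of the threshold, 106 calls were lost, 33 gained and 7 reversed. Among values not called, 81 changed sign and stayed uncalled. The 7 that reversed, each from a call, were *GSH2* in *snf5Δ* in YPD (0.059 with library totals, 0.23 and 0.25 with limma on TPM plus 1 and plus 0.1), and in *snf5Δ* in YPD+Cys *SAH1* (0.0446 and 0.0458) and *CYS3* (0.18 and 0.19) with limma. The median of all genes in *snf5Δ* was 0.34 with library totals and 0.44 and 0.49 with TPM in YPD, and 0.73 and 0.81 with TPM in YPD+Cys. For the number of genes called, *snf5Δ* against wt in YPD gave 3 with library totals, 2 and 1 with limma and 2 without the 3 libraries with over 40% of reads in several places (5 with the settings of the report), and in YPD+Cys 2 and 2 with limma (7). *snf2Δ* against wt in YPD gave 0 and 0 with limma and 5 with the replicate block (3), and in YPD+Cys 3 and 3 with limma (5). With limma on TPM plus 1, 1158 of 5722 genes were called higher and 128 lower in *snf5Δ* in YPD. The settings of the report gave 689 and 865 of 5757. In YPD+Cys these were 3414 and 107, against 560 and 652. In *snf2Δ* they were 195 and 96 in YPD, against 454 and 682, and 798 and 88 in YPD+Cys, against 445 and 668. Library totals called 1945 and 367 in *snf5Δ* in YPD, and the replicate block 613 and 931 in *snf2Δ* in YPD. For cysteine, *snf5Δ* gave 2 and 2 with limma (5), *snf2Δ* gave 1 and 0 with limma and 0 without the 3 libraries (5), and wt gave 1 with DESeq2, 1 with a replicate block over all strains and 5 with the replicate block within strain (0). The difference of responses gave 1 with DESeq2, 1 with the block and 4 with the block within strain for *snf5Δ* (0) and 1 with the block within strain for *snf2Δ* (0). For cysteine, limma on TPM plus 1 called 4 of 5722 genes higher and 25 lower in *snf5Δ* and 1 and 15 in *snf2Δ*. The settings of the report gave 4 and 48, and 3 and 34, of 5757. In wt, DESeq2 called 23 and 19, the replicate block 17 and 19 and that within strain 178 and 180, against 12 and 13. For the difference, DESeq2 called 1 and 28 in *snf5Δ* and the block within strain 24 and 60, against 0 and 19. In *snf2Δ* that block called 5 and 27, against 0 and 5. From counts per kb the *SAM1* share averaged 61.0% in *snf5Δ*, 57.7% in *snf2Δ* and 83.6% in wt in YPD+Cys, and 73.7%, 71.0% and 87.9% in YPD. Only in *snf5Δ* in YPD was this shift larger than the SD between libraries. The cause of these shifts was not tested. Replicate numbers were not taken to pair mutants with wt, since number 1 correlated negatively in each comparison, though numbers 2 and 3 mostly correlated. The block changed no call of cysteine in either mutant.

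Leaving out 1 library in turn gave 1 to 5 genes called for *snf5Δ* and 1 to 3 for *snf2Δ* against wt in YPD, 4 to 7 and 5 to 7 in YPD+Cys, 5 to 5, 2 to 5 and 0 to 3 for cysteine in *snf5Δ*, *snf2Δ* and wt, 0 to 0 for both differences of responses, and 0 to 1 in YPD+Cys and 0 to 0 in YPD for *snf5Δ* against *snf2Δ*. With the block within strain, leaving out 1 number gave 5 to 5 in *snf5Δ* and *snf2Δ*, 3 to 4 in wt, 3 to 5 for the difference in *snf5Δ* and 0 to 5 in *snf2Δ*. The counts over all genes in these fits are not given here. A change in the number called therefore cannot be told from a change over all genes. The *SAM1* share ranged over 49.8% to 57.8% in *snf5Δ*, 48.7% to 55.5% in *snf2Δ* and 78.9% to 83.7% in wt in YPD+Cys, and over 68.9% to 70.0%, 64.8% to 69.5% and 85.1% to 87.2% in YPD. The lowest counts in a library were 40 for *SAM2* and 81 for *STR2*.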
